A study of Mus musculus with 2 samples.

Results

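The genes described here are 10 genes of the Sertoli cell and testis pathway, Sox9, Sox8, Dmrt1, Amh, Ptgds, Vnn1, Aard, Cst9, Tesc and Cbln4, read in developing ovaries. They were chosen by name, and every probe set annotated with exactly 1 of these symbols was taken, which gave 15 of the 45101 probe sets on the array and 10 of 18193 genes. The tissue was the gonad-mesonephros complex, that is, the embryonic gonad dissected together with the mesonephros beside it, of XX mouse embryos at E12.5. One array carried RNA of embryos homozygous for the Gata4ki allele (Gata4ki/ki, strain C57Bl/6), and the other carried RNA of wild type embryos, whose strain was not stated in the labels. The RNA on each array came from 6 pairs of complexes pooled together, so no error between embryos can be given for any value, and no test between the genotypes was possible.

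GATA4 is a DNA-binding factor that the somatic cells of the gonad need, and FOG2, encoded by Zfpm2, is its cofactor. The Gata4ki knock-in changes GATA4 itself so that it binds FOG proteins poorly, in every cell that makes GATA4. In XY gonads SRY switches on Sox9 in the supporting cells, which become Sertoli cells, and SOX9 with its partners then drives Amh and other genes of the testis. In XX gonads the same precursors become granulosa cells and normally keep most of these genes low, so the comparison asks whether any of them is read at a higher level where the GATA4 and FOG complex is impaired.

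Signals are MAS5 intensities, and a floor was set at a signal of 24.0, the 50th percentile over both arrays. A gene counted as measured where at least 1 array was above it. A ratio with 1 array under the floor is a bound. Log2 ratios are Gata4ki/ki over wild type. Genes absent from XX embryos show what the arrays read without a target: the 11 probe sets of the Y-linked genes Sry, Eif2s3y, Kdm5d and Uty gave 0.0817 to 8.15 on the Gata4ki/ki array and 0.291 to 9.36 on the wild type array. Xist, the RNA of the inactive X chromosome, had signals of 1742 in Gata4ki/ki and 1805 in wild type. Somatic gonad genes were present on both arrays, with Wt1 at 1475 in Gata4ki/ki and 1461 in wild type and Nr5a1 at 277 in Gata4ki/ki and 219 in wild type.

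Of the 10 genes, 6 were measured and 4 (Sox8, Amh, Tesc and Cbln4) stayed under the floor on both arrays. Of those measured, Vnn1 was the 1 gene at least 2-fold higher in Gata4ki/ki, where 0.846% of all 12300 measured genes were, and none was at least 2-fold lower at this floor, where 0.537% of all were. Their ratios ran from -0.71 for Dmrt1 to 1.09 for Vnn1, with 3 above 0 and 3 below. The median was -0.16, beside 0.01 over all measured genes. With the floor at the 40th percentile, where 8 members were measured, it was 0.15, so its sign depended on the floor. Sox9, Ptgds and Aard lay within 1.5-fold between the arrays, as did 93.3% of all measured genes with bounds taken at their value.

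**Figure D1:**
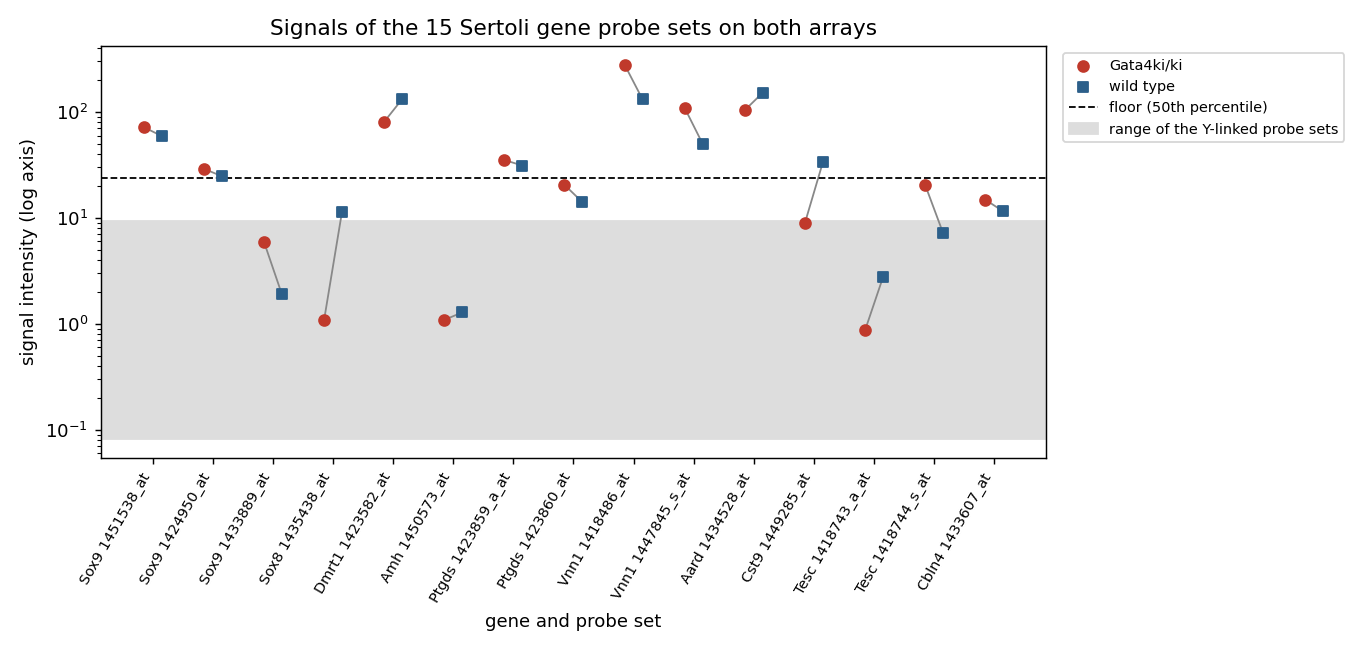
Signal intensity (log axis) of each of the 15 probe sets on the Gata4ki/ki array (red circles, left of each pair) and the wild type array (blue squares). The dashed line is the floor at 24.0 and the grey band spans the 11 Y-linked probe sets; both Vnn1 probe sets are higher in Gata4ki/ki, Dmrt1, Aard and Cst9 are lower, and Amh lies in the grey band on both arrays.

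Promoters were examined for 5 of the 10 genes (Sox8, Ptgds, Cst9, Tesc and Cbln4), which matched by symbol in the RefSeq promoter table of GRCm38.p6, which gives 250 bases before and 50 bases after a gene's start. The upstream parts for Cst9 and Ptgds are shown, since these were the members that were both measured and in that table, and the altered protein is a GATA factor. Capitals mark a GATA motif, searched on both strands as the letters GATA with A or T before them and A or G after them. Cst9 (chr2:148834897-148835146, plus strand) and Ptgds (chr2:25469750-25469999, minus strand) are written 5′ to 3′ along the gene.
Cst9: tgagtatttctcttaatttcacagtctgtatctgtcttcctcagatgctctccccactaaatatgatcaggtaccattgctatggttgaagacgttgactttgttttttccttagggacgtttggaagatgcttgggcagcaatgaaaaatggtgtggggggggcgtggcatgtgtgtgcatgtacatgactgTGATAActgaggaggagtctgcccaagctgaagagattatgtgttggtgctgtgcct
Ptgds: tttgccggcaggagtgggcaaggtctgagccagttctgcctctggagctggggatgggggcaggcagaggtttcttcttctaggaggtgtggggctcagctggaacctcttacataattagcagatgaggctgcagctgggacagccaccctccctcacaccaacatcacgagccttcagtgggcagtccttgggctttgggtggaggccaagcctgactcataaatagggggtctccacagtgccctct
The Cst9 window held 2 such motifs, TGATAA starting 57 bases before the start and TGATAG starting 1 base before it, the second running past the printed part. The Cbln4 window held AGATAG starting 7 bases before the start, and the windows of Ptgds, Sox8 and Tesc held no such motif. Of 32851 promoters in the table, 29.8% held at least 1 such motif. A SOX motif (AACAAT, both strands) occurred in the window of Cbln4, starting 242 bases before the start, and in 10.7% of all promoters. An SF1 motif (AGGTCA, both strands) was in 16.3% of all promoters and in none of the 5 windows. A match is a description of letters, and no binding was measured here.

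Among the transcription factors, Sox9 had close signals on both arrays and Dmrt1 a lower one in Gata4ki/ki. SOX9 is the central factor of Sertoli cell fate. Its brightest probe set read 72.1 in Gata4ki/ki and 59.3 in wild type, a log2 ratio of 0.28. A second read 29.1 in Gata4ki/ki and 24.8 in wild type, just above the floor, a ratio of 0.23. Its remaining one read 5.98 in Gata4ki/ki and 1.90 in wild type and lay in the range of the Y-linked probe sets. Both measured Sox9 probe sets were slightly higher in Gata4ki/ki. Among the 8479 measured probe sets with a mean signal under 100, 22.1% had a ratio at least as high as the brighter one and 26.0% as the dimmer one, so Sox9 lay well inside the bulk of equally dim probe sets.

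SOX8, a close relative of SOX9 that acts with it in the testis, was read at 1.08 in Gata4ki/ki and 11.5 in wild type on its 1 probe set. Both values are under the floor, so no ratio is given. The wild type value was a little above the highest Y-linked signal of 9.36 on that array, and the Gata4ki/ki value was inside the Y-linked range.

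DMRT1 is a DM domain transcription factor that preserves Sertoli identity after birth and is also made in germ cells and in early gonads of both sexes. It was read at 80.8 in Gata4ki/ki and 132.2 in wild type, a log2 ratio of -0.71, or 1.64-fold lower. Of 11462 genes with both arrays above the floor it ranked 183 from the lowest ratio, and 1.23% of the 7590 measured probe sets with mean signals of 100 to 400 lay at least as low. Its signals lay on either side of 100, the lower edge of that range. At least 1.5-fold lower were 2.03% of these probe sets, and 7.98% of the 8479 with means under 100. The 8 germ cell genes examined, all measured, had a summed signal of 4250 in Gata4ki/ki and 3689 in wild type, with a median log2 ratio of 0.10 and none 2-fold apart. Of these, 5 had ratios above 0 and 3 below. The higher sum rested on Dppa5a, which read 2476 in Gata4ki/ki and 1868 in wild type. Kit and Dppa5a were at 0.51 and 0.41, the dimmer probe set of Kit was at -0.10, and Dazl, Ddx4 and Mael were at -0.31, -0.21 and -0.05 on their brightest probe sets. Their part in the Dmrt1 value was not tested. Since each array read a whole complex, fewer cells of a type and less RNA per cell cannot be told apart, for Dmrt1 or for any gene below.

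Of Amh, Ptgds and Cbln4, genes of secreted or signalling products, only Ptgds was measured. AMH is the Sertoli hormone that makes the Müllerian ducts regress in males. Its probe set read 1.09 in Gata4ki/ki and 1.29 in wild type, inside the Y-linked range on both arrays. A value in that range does not show that a gene is silent. For Foxl2, 1 probe set read 0.826 in Gata4ki/ki and 0.876 in wild type, while its other read 34.5 and 142.4. Neither array carried XY gonads, so whether the Amh probe set detects its transcript was not tested. PTGDS, the lipocalin-type prostaglandin D synthase, makes prostaglandin D2, which reinforces SOX9 in XY gonads. It was read at 35.2 in Gata4ki/ki and 31.2 in wild type on its brighter probe set, a log2 ratio of 0.17, with 31.1% of equally dim probe sets at least as high. Its other probe set gave 20.5 in Gata4ki/ki and 14.1 in wild type, under the floor on both arrays. Cbln4, which encodes a secreted cerebellin switched on in the XY gonad, read 14.9 in Gata4ki/ki and 11.5 in wild type, above the Y-linked range and under the floor.

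Vnn1 was at least 2-fold higher in Gata4ki/ki on both its probe sets. It encodes vanin 1, a pantetheinase anchored to the cell membrane and known from the XY gonad as a Sertoli gene whose promoter responds to SOX9 and SF1. Its brighter probe set read 279.7 in Gata4ki/ki and 131.4 in wild type, a log2 ratio of 1.09, or 2.13-fold higher. The dimmer one read 109.1 in Gata4ki/ki and 49.95 in wild type, a ratio of 1.13, and carries the suffix for probes that other transcripts may share. Both probe sets were higher in Gata4ki/ki by nearly the same fold, and all 4 values were above the floor. Only 0.316% of the 7590 probe sets of similar signal had a ratio as high as the brighter one, and 1.05% of the 8479 dimmer ones as high as the other. Genes with every one of 2 or more measured probe sets at least 2-fold higher were 8 of 5463, or 0.146%, Vnn1 among them. Both probe sets were exposed to 1 pool of RNA per genotype, so their likeness says nothing about how embryos vary.

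**Figure D2:**
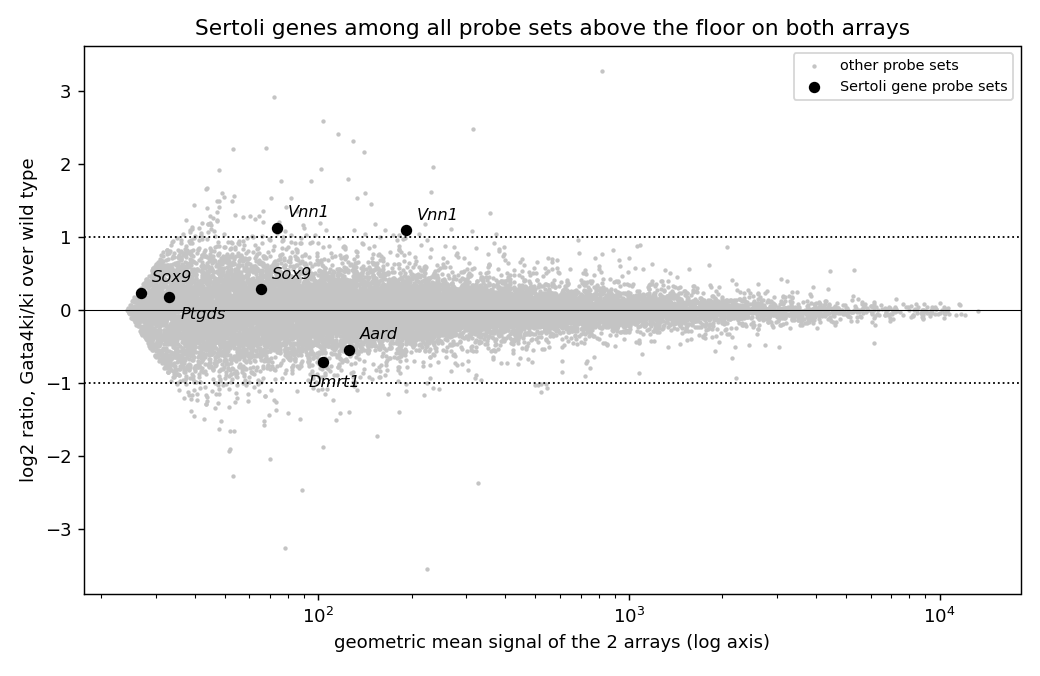
Log2 ratio of Gata4ki/ki over wild type against the geometric mean signal (log axis), for all single-symbol probe sets with both signals above the floor (grey) and those of the Sertoli and testis genes (black). Dotted lines mark 2-fold; both Vnn1 probe sets lie above the upper line, while Sox9 and Ptgds lie near 0 and Dmrt1 and Aard lie below it.

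On the same array, some lists of other cell types had higher summed signals, among them those of fetal Leydig cells, macrophages and erythroid cells. The lists of ovarian supporting cells, endothelium, mesonephric and Müllerian ducts, and cartilage had lower ones. Those of germ cells and of neural crest and glia were higher. All 4 measured fetal Leydig cell genes had ratios above 0, and 3 of them (Cyp17a1, Hsd3b1 and Star) were at least 2-fold higher, with a summed signal of 636 in Gata4ki/ki and 110.0 in wild type. Cyp17a1, an enzyme of androgen synthesis, read 211.8 in Gata4ki/ki and 6.49 in wild type, and was at least 8.81-fold higher. Hsd3b1, another steroidogenic enzyme, was 4.49-fold higher. Star, the mitochondrial cholesterol carrier, had a bound of at least 3.82-fold on its brightest probe set and had a ratio of 0.17 on the 1 probe set where both arrays were above the floor. Of 9 macrophage genes, 8 had a ratio above 0 and none reached 2-fold, with sums of 2122 in Gata4ki/ki and 1366 in wild type. Ptprc was at 0.92, Fcer1g at 0.87 and Cx3cr1 at -0.39. Of 7 measured erythroid genes, 4 (Klf1, Hemgn, Alas2 and Slc4a1) were at least 2-fold higher on their brightest probe sets, Slc4a1 being 1.93-fold higher on another, and the list summed to 8904 in Gata4ki/ki and 7306 in wild type. On its brightest probe set, every measured marker of the fetal Leydig cell, macrophage and erythroid lists was above the floor in Gata4ki/ki. Cyp17a1, Star, Cyp11a1 and Hemgn were under it in wild type, so their ratios could only point upward. Of the measured fetal Leydig cell genes, Hsd3b1 alone was above it on both arrays. Sums are over the brightest probe set of each measured gene, here and below. Of all 12300 measured genes, 0.846% were at least 2-fold higher. These lists were chosen with earlier results of these data known, so their counts are no independent evidence. The part of these cell types in the Vnn1 difference was not tested.

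Of the remaining genes of differentiating Sertoli cells, Aard and Cst9 had lower signals in Gata4ki/ki. Aard, which encodes a protein rich in alanine and arginine, read 104.1 in Gata4ki/ki and 152.5 in wild type, a log2 ratio of -0.55, or 1.46-fold lower. From the lowest ratio it ranked 359 of those 11462 genes. Of the probe sets with mean signals of 100 to 400, 2.53% were at least as low, and Aard lay towards the lower end of that range. Cst9 encodes testatin, a cystatin-related protein that appears in pre-Sertoli cells soon after Sry. Its signal was 8.96 in Gata4ki/ki, inside the band of the Y-linked probe sets, and 33.8 in wild type, so it was at least 1.40-fold lower. Cst9 counted as measured through the wild type array alone, so its ratio could only point downward, and the size of the bound is set by the floor. With the floor at the 40th percentile the bound was -1.30 on the log2 scale, past 2-fold. Tesc encodes tescalcin, a calcium-binding protein first found in the embryonic testis. Its probe sets read 20.6 and 0.869 in Gata4ki/ki and 7.18 and 2.77 in wild type, opposite in direction and all under the floor.

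Of the 12 markers of ovarian supporting cells, the XX counterpart of Sertoli cells, all were measured and 6 were at least 2-fold lower in Gata4ki/ki, with none 2-fold higher. Their summed signal was 2493 in Gata4ki/ki and 4297 in wild type, and the median log2 ratio was -0.98. Fst, which encodes the activin-binding protein follistatin, read 65.6 in Gata4ki/ki and 769.5 in wild type, and Foxl2, a transcription factor of granulosa cells, read 34.5 in Gata4ki/ki and 142.4 in wild type. Sprr2d was at least 7.87-fold lower, Gng13 5.51-fold, Msx1 2.66-fold and Irx3 2.09-fold, while the dimmer probe set of Msx1 gave only a bound of -0.50. Of the 12 ratios 9 were below 0 and 3 above, those of Lgr5, Bmp2 and Rspo1 at 0.62, 0.42 and 0.34. Of all 12300 measured genes, 0.537% were at least 2-fold lower. The list was already known to be low in these data, so its count is no independent evidence. On the Gata4ki/ki array, where 6 of these markers were at least 2-fold lower, Sox9 was within 1.5-fold of wild type. Vnn1 was 2.13-fold higher there on its brighter probe set. Amh was in the Y-linked range on both arrays. What these values mean for cell fate was not tested.

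Upstream of Sox9, 13 of the 14 represented genes of the list of SRY and its activators were measured and none was 2-fold apart. Sry itself read 0.584 and 8.15 in Gata4ki/ki and 0.295 and 9.36 in wild type on its probe sets. Gata4 read 286.2 in Gata4ki/ki and 240.8 in wild type on its brighter probe set, and 34.6 in Gata4ki/ki and 49.2 in wild type on its dimmer one, so the pair pointed opposite ways. The allele alters the protein, and these values therefore do not check the labels. Zfpm2 read 784 in Gata4ki/ki and 530.2 in wild type, a log2 ratio of 0.56, with 0.97 on its other probe set. By brightest probe set, the largest ratio in this list was that of Cited2, a transcriptional coregulator that works with WT1 to raise Nr5a1 in the early gonad, which read 1186 in Gata4ki/ki and 670.3 in wild type, a ratio of 0.82, with 0.48 on its dimmer probe set. Nr5a1, which encodes SF1, had a ratio of 0.34, and Igf1r, a receptor that together with the insulin receptor is needed for Sry expression, had 0.36. The median of the list was 0.12.

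Sertoli signals and their receptors had no gene 2-fold apart among the 7 measured of 11 represented, and a median of -0.25. Fgf9, the growth factor that keeps Sox9 on in XY gonads, read 59.0 in Gata4ki/ki and 81.5 in wild type, a log2 ratio of -0.47, and -0.13 on its other probe set. Its receptor Fgfr2 read 674.7 in Gata4ki/ki and 846.9 in wild type, a ratio of -0.33. Pdgfa, a platelet-derived growth factor, was at -0.27 and -0.42 on its probe sets. Inhbb, the activin beta B subunit, was at 0.29 and 0.66. Dhh, the hedgehog ligand of Sertoli cells, was not above the floor, with 1.21 and 19.6 in Gata4ki/ki and 0.776 and 20.1 in wild type.

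The list of other fetal Sertoli markers had 6 measured of 12 represented genes, and 1, Nr0b1, was 2-fold higher. Nr0b1, which encodes the orphan nuclear receptor DAX1 and is expressed in the early gonads of both sexes, read 239.6 in Gata4ki/ki and 112.5 in wild type, 2.13-fold higher on its 1 probe set. With a pseudocount of 16 in place of the floor it no longer reached 2-fold. Because Nr0b1 is expressed in both sexes, its place in this list does not make it specific to Sertoli cells. Gstm6, a glutathione transferase, read 133.7 in Gata4ki/ki and 82.0 in wild type, a log2 ratio of 0.70. Cyp26b1, which breaks down retinoic acid and in XY gonads keeps germ cells out of meiosis, was at 0.41, with signals of 79.0 in Gata4ki/ki and 59.5 in wild type. Defb19, a beta-defensin, was at 0.17 close to the floor. Hsd17b1, Hsd17b3, Mro, Col9a3, Mmd2 and Sox10 stayed under the floor on both arrays. The list had a median of 0.29.

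The AMH receptor was lower on all its probe sets, by less than 2-fold. Amhr2, the type II receptor of AMH found in the gonad and the mesenchyme around the Müllerian duct, read 1838, 1119 and 170.2 on its 3 probe sets in Gata4ki/ki and 2620, 1586 and 279.8 on the same ones in wild type. Their log2 ratios were -0.51, -0.50 and -0.72, and the brighter pair carry the suffix for probes that may cross-hybridise. Of the 6 measured of 7 receptors and SMADs none was 2-fold apart, and the median was 0.00. Acvr1, a type I receptor, was at 0.15 and Smad5, a signal transducer, at -0.14. Genes of the mesonephric and Müllerian ducts, 8 measured, had a median of -0.17, with Calb1 at -0.72 and the brighter probe set of Wnt7a at -0.63, and summed to 2205 in Gata4ki/ki and 2671 in wild type. Of the 8, 7 had ratios below 0 and Lhx1 was at 0.21 on its brighter probe set and at a bound of -0.55 on the dimmer one. The dimmer measured probe set of Wnt7a was at 0.34. Their part in the Amhr2 values was not tested.

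In the prostaglandin D2 pathway, 2 of 6 represented genes were measured and neither was 2-fold apart. The transporters Slco2a1 and Abcc4 had log2 ratios of 0.35 and -0.12. The receptors Ptgdr and Ptgdr2, the second synthase Hpgds and the cyclooxygenase Ptgs2 stayed under the floor on both arrays, so downstream of Ptgds no prostaglandin D2 receptor was measured.

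Among relatives of the 10 genes, the cerebellins Cbln1 and Cbln2 had higher signals in Gata4ki/ki. Cbln1, a secreted protein known for organising synapses in the cerebellum, read 69.9 in Gata4ki/ki and 28.7 in wild type on the brightest of its probe sets, 2.43-fold higher with a log2 ratio of 1.28. Its other probe sets were at least 2.27-fold and at least 1.95-fold higher, with wild type under the floor. Cbln2 read 77.2 in Gata4ki/ki and 39.96 in wild type, a ratio of 0.95. Both Cbln3 probe sets were under the floor, with 4.82 and 23.4 in Gata4ki/ki and 5.201 and 14.1 in wild type. Of the 4 measured relatives in the vanin, cystatin, cerebellin and tescalcin families, Cbln1 alone was 2-fold apart. Vnn3, the relative of Vnn1, read 0.821 in Gata4ki/ki and 3.29 in wild type and was not above the floor.

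No SOX or DMRT relative was 2-fold apart at this floor. Of 17 SOX genes represented, 13 were measured, with a median log2 ratio of -0.08. Sox17, an endothelial factor, read 290.8 in Gata4ki/ki and 461.1 in wild type, a ratio of -0.66, with -0.78 on its dimmer probe set, and Sox15 was known only as a bound of -0.58. Endothelial genes, 8 measured, had a median of -0.31, with Sox18 at -0.57, and none 2-fold apart. Of the 8, 7 had ratios below 0, and Kdr was at 0.29. Dmrt2 and Dmrta1, the measured DMRT relatives, had ratios of 0.25 and -0.10.

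Sox9 is also expressed in cartilage and in neural crest derivatives. Of the cartilage genes, 3 of 6 were measured and summed to 245.7 in Gata4ki/ki and 264.4 in wild type, with the brighter probe set of Col9a1 at -0.41 and Col2a1 at 0.15. Of the 3 represented neural crest and glia genes only Erbb3 was measured, at 0.20, and Sox10 and Foxd3 were not above the floor. None of these genes was 2-fold apart, and their part in the Sox9 signal was not tested, nor was that of the mesonephros.

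**Figure D3:**
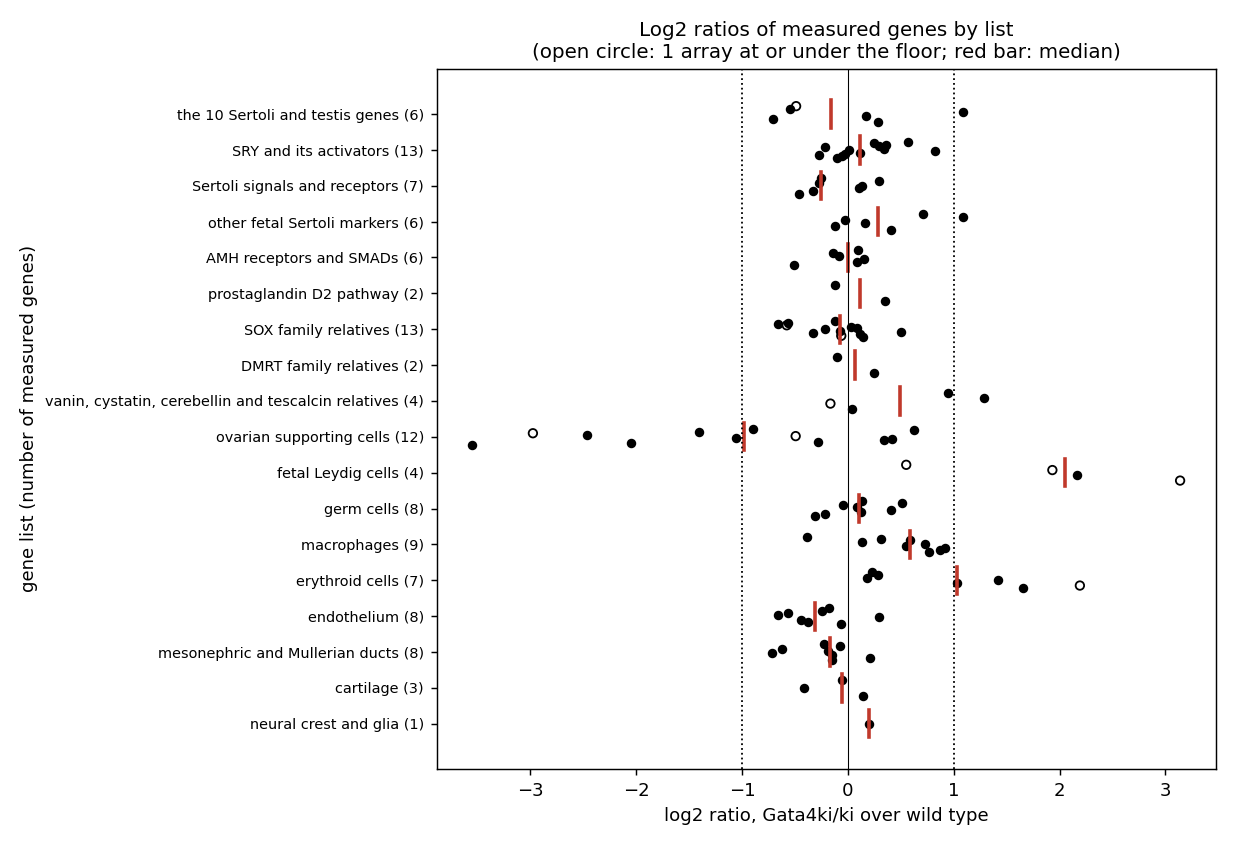
Log2 ratio of Gata4ki/ki over wild type for the measured genes of each list, 1 point per gene on its brightest probe set, with the number measured in brackets. Filled points are above the floor on both arrays, open ones are bounds, red bars are medians and dotted lines mark 2-fold; the Sertoli and testis genes have a median of -0.16, the ovarian supporting cell genes one of -0.98 and the fetal Leydig cell genes one of 2.05.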

How the data were processed

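RNA of XX gonad-mesonephros complexes was read on 1 oligonucleotide array per genotype. The authors deposited 1 linear intensity for each probe set, computed by MAS5 according to the submitters' processing notes. No version and no detection calls are given in the sources used here. With 2% trimmed from each end, the mean intensity was 150.0 on both arrays, the mark of a single scaling factor per array. No genome build goes with the array values.

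Of 45101 probe sets, 34958 had 1 gene symbol in the platform's annotation, 932 had several and 9211 had none. All 10 member symbols were equal to those of the RefSeq gene table of GRCm38.p6. Control probe sets, 64 in number, were left out. Values were used without further normalization, and signals under the floor were raised to it ahead of the log2 step. Each gene was represented by its brightest measured probe set, by mean log2 signal. With 1 array per group there was no test. The procedure was tested on simulated data with planted changes larger than 2-fold in genes well above the floor. Planted changes under 2-fold and genes near the floor were not covered by it. Calculations used Python 3.11.15, numpy 2.4.6 and pandas 2.3.3.

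The members, gene lists and alternatives were chosen with earlier results of these data known. The naming rule took all members, every list gene at least 2-fold apart, up to 4 genes per pathway list and 2 per other list by size of ratio, and Gata4, Zfpm2, Nr5a1, Wt1, Sry and Xist. Genes named outside it were chosen after their values were seen. Alternatives were other floors, a pseudocount, other choices of probe set and other scalings.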

Additional observations from a re-analysis of the deposited data

How the results depend on the processing

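No paired analysis was possible because each genotype has 1 array. Over 7 alternatives, 39 ratios of the measured members were recomputed, and none changed sign. Of these, 37 moved by less than the robust SD of ratios at their signal (0.37 under 100, 0.22 from 100 to 400). Several of them could not move. Another floor leaves a ratio as it was where both signals stay above it. Other choices of probe set could not alter Dmrt1, Aard and Cst9, which have 1 probe set each. Vnn1 ranged from 1.004 to 1.11 and stayed at least 2-fold higher in each, Dmrt1 ranged from -0.71 to -0.62, Aard from -0.55 to -0.49, Sox9 from 0.23 to 0.29 and Ptgds from 0.12 to 0.18. Cst9 moved to a bound of -1.30 with the floor at the 40th percentile, and to -0.995 with a pseudocount of 16, so with the lower floor 1 member was at least 2-fold lower; the bound moves with the floor by construction. That floor also let Tesc and Cbln4 be measured, whereas with the floor at the 60th percentile neither Ptgds nor Cst9 was, and without suffixed probe sets Ptgds was not. The median over the measured members moved from -0.16 to 0.15 with the 40th percentile and to -0.49 without suffixed probe sets. Over all genes, 104 higher and 66 lower became 210 and 136 with the 40th percentile and 41 and 33 with the 60th. Of the pathway lists 1 gene, Nr0b1, was 2-fold apart, and 0 with the pseudocount, which shrinks ratios of dim signals. Low signal over background limits 7 of the 15 probe sets, for which no ratio can be given.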

Other observations

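Kitl, the ligand of the KIT receptor made by supporting cells of both sexes, belongs to the list of Sertoli signals and was picked out after its values were seen. Its 4 probe sets read 2387, 839.1, 88.2 and 42.4 in Gata4ki/ki and 2844, 1108, 151.1 and 59.6 in wild type. The log2 ratios were -0.25, -0.40, -0.78 and -0.49, all below 0 and all short of 2-fold. Clu, which encodes clusterin, a secreted chaperone abundant in Sertoli cells, read 649.5 in Gata4ki/ki and 707.9 in wild type on its brightest probe set, and its 4 probe sets had ratios from -0.28 to 0.00. Cldn11, a tight junction protein of Sertoli cells, read 92.1 in Gata4ki/ki and 93.8 in wild type.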
